A study of Mus musculus with 26 samples.

Results

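The gene expression tables of this series were searched for 10 genes that mark activation states of macrophages: Arg1, Nos2, Mrc1, Cd163, Chil3, Retnla, Spp1, Gpnmb, Trem2 and Lyve1. All 10 were found by symbol among the 53465 genes listed for regenerating muscle, and all 10 passed the filter on low values. The muscle was tibialis anterior of C57BL/6J mice, given as male and 6 weeks old in the study's methods, collected at days 0, 1, 3, 5 and 10 of injury by cardiotoxin (CTX), a venom component that kills myofibers. The labels give 2 libraries a day and do not say whether these are separate animals, so the p-values measure the spread between these libraries. The methods name saline as the control, but the labels call the day 0 group only CTX-D0, and whether it was injected is not given in the sources used here. The same genes were read in 8 libraries of C2C12, a mouse myoblast line grown in culture, with CTRL or Cas9M3 constructs in growth medium (GM) or on day 3 of differentiation (DM3). Cas9M3 lowers Mettl3, the methyltransferase that places m6A on mRNA, through the repressor dCas9-KRAB, per the study's methods, and each construct was carried by a stable line selected in culture.

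Muscle injury draws monocytes into the tissue, where they become macrophages that clear dead fibers and later leave or settle. Macrophages are commonly described by marker genes of overlapping states. Nos2 makes nitric oxide from arginine and marks cells driven by interferon gamma and bacterial products, while Arg1, which turns the same arginine into ornithine, and Mrc1, Chil3 and Retnla mark cells driven by IL-4 and IL-13. Spp1, Gpnmb and Trem2 mark phagocytes that take up lipid and debris. Lyve1, Cd163 and Mrc1 are used for macrophages resident in tissue. None of these genes is restricted to macrophages in every tissue. Levels are given as FPKM, the fragments per kilobase of gene length, so that genes can be compared per length. They are scaled by a factor for each library that makes the typical gene alike across libraries. The values are thus not shares of the total reads of a library. In whole muscle, fewer cells of a type and less RNA per cell cannot be told apart.

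Promoter sequence was available from RefSeq (GRCm38.p6) for 7 of the 10 genes, and not for Arg1, Nos2 and Lyve1. The 250 bases before the start of 4 of them are shown because their levels bear on the results: Trem2, Gpnmb and Spp1 moved together over the days, and Chil3 was highest earlier. Short motifs, 5 in all, were chosen for factors known in myeloid cells and for the core promoter, and were searched on both strands: TGANTCA (AP-1), GAGGAA (the core of PU.1), CACGTG (the E-box of the MiT/TFE factors), TTGCNNAA (C/EBP) and TATAAA (the core promoter). Matches are in capitals, as read 5′ to 3′ along the gene.
Trem2, chr17:48346151-48346400, plus strand: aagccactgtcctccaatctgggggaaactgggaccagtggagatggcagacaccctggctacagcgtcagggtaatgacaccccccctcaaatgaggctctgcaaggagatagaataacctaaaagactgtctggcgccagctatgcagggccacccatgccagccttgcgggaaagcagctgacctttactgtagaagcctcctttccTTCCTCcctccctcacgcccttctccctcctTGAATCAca
Gpnmb, chr6:49036268-49036517, plus strand: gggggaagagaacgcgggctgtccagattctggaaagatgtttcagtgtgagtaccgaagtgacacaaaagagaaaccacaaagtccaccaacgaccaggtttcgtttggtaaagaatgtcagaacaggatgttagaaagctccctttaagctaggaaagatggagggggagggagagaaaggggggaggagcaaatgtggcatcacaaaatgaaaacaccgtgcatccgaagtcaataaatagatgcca
Spp1, chr5:104434861-104435110, plus strand: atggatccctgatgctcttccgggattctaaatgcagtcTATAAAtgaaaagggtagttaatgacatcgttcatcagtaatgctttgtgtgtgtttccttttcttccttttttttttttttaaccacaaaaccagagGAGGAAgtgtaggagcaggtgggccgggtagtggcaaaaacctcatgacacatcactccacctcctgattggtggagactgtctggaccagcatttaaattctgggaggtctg
Chil3, chr3:106167565-106167814, minus strand: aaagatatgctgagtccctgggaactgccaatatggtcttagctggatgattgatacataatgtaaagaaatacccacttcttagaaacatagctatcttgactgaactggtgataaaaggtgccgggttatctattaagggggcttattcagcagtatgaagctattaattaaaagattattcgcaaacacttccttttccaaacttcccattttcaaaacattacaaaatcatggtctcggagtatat
The Trem2 window held AP-1 at 9 to 3 bases before the start and, on the other strand, the PU.1 core at 40 to 35 bases before it. The Spp1 window shown held the PU.1 core at 113 to 108 bases and TATAAA at 211 to 206 bases before the start. A later Spp1 start in RefSeq has its own window (chr5:104435942-104436191, letters not shown), which held C/EBP at 156 to 149 bases before that start. The Gpnmb and Chil3 windows held none of the 5 motifs. Mrc1 also moved with Trem2 (correlation 0.917), but its window is not shown. It held the PU.1 core on the other strand at 180 to 175, 167 to 162 and 35 to 30 bases before the start. The Retnla window, not shown, held the PU.1 core on the other strand at 196 to 191 bases, C/EBP at 134 to 127 and TATAAA at 30 to 25. That of Cd163 held none. Among 32851 promoter windows of this length, AP-1 was found in 6.75%, the PU.1 core in 23.3%, the E-box in 6.02%, C/EBP in 9.56% and TATAAA in 12.4%. Single matches of this kind are common and are given as a description of the letters only.

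The 10 genes did not move as a group. By the mean of each day, Arg1, Chil3 and Lyve1 were highest on day 1, Spp1, Mrc1, Gpnmb, Trem2 and Cd163 on day 3, and Retnla and Nos2 on day 10. For 5 of them, Arg1, Chil3, Mrc1, Gpnmb and Trem2, both libraries of the peak day lay above all 8 others, and these peak days held when any single library was left out. The peak day of the other 5 rested on single libraries. It moved from day 10 to day 0 for Retnla without replicate 2 of day 10, and for Nos2 without that library or replicate 1 of day 0. It moved from day 3 to day 1 for Spp1 without replicate 1 of day 3, and for Cd163 without replicate 2 of day 3 or replicate 1 of day 1. For Lyve1 it moved from day 1 to day 5 without replicate 2 of day 1. Cd163, Lyve1 and Retnla differed between no pair of days at an adjusted p of at most 0.05 in limma.

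Sex-linked transcripts divided the libraries across days. From the value that 1 read adds, the libraries held 14.2 to 18.8 M reads on genes. Xist was at 5.78 to 10.0 FPKM in 5 libraries, both of day 0, both of day 10 and replicate 2 of day 3, and at most 0.152 FPKM in the other 5, although the methods give the mice as male. The sum of Ddx3y, Eif2s3y, Kdm5d and Uty was at most 0.217 FPKM in those with Xist and at least 17.8 FPKM in those without. Days 1 and 5 held only libraries without Xist and days 0 and 10 only libraries with it, so day and this difference cannot be told apart except through day 3.

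**Figure D1:**
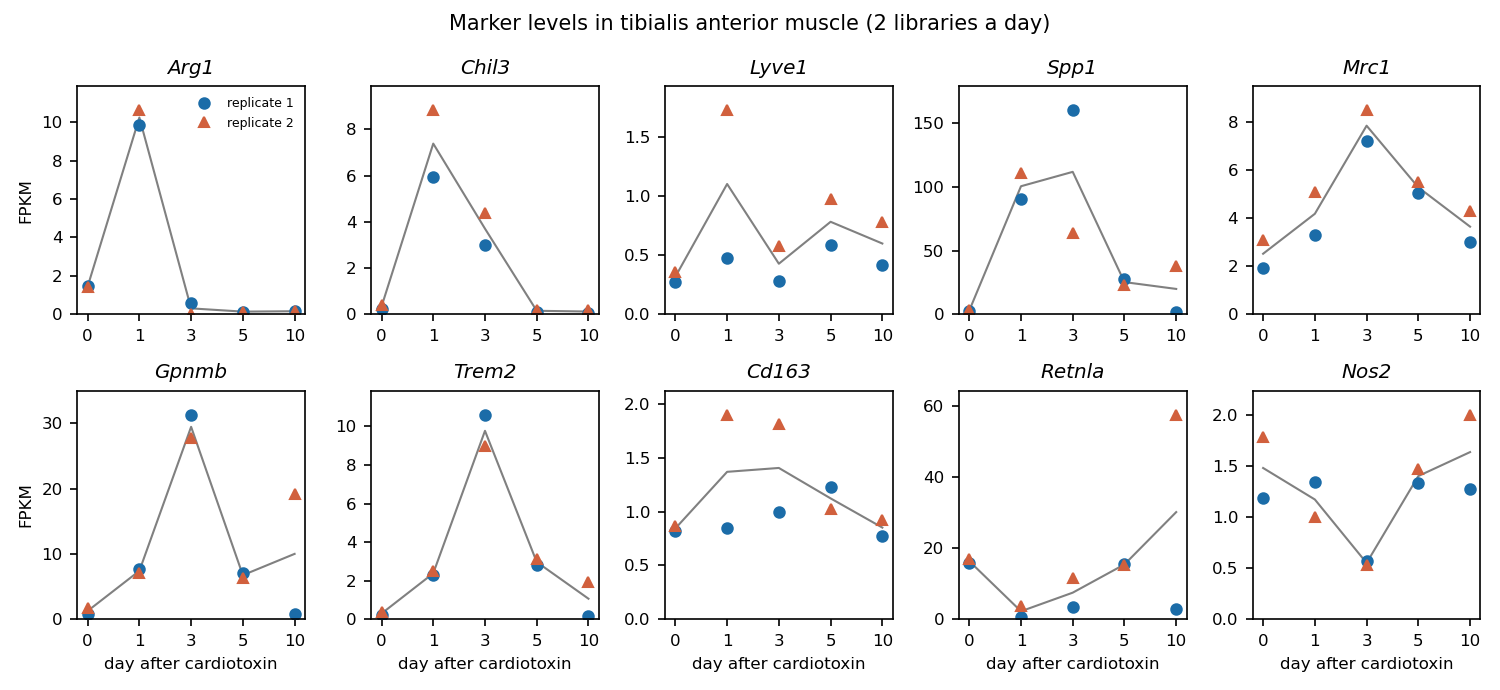
FPKM of the 10 genes in each library (points) and the mean of each day (line) against the day after cardiotoxin, with days evenly spaced and a separate linear scale for each gene. Arg1 and Chil3 peak on day 1, Mrc1, Gpnmb and Trem2 on day 3, and on day 10 replicate 2 lies far above replicate 1 for Spp1, Gpnmb, Trem2 and Retnla.

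Day 3 was the day of broadest change. In a limma fit of log2(FPKM + 0.1) over the 16753 genes that passed the filter, 7 of the 10 genes differed between day 3 and day 0, with 5 higher and 2 lower, where 48.8% of all genes did. On day 1, 2 differed from day 0, both higher, against 6.0% of all genes. On day 5, 3 did, with 2 higher and 1 lower, against 25.5% of all genes. On day 10, limma called 0 of the 10, with 2 at an unadjusted p under 0.05, against 0.00597% of all genes. With so many genes differing on day 3, the number of the 10 called there says little about them, and the results below are their sizes, directions and days. Counts from the gene lists below on day 3 stand against the same 48.8%.

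Between the injured days the number of the 10 genes that differed was 3 between days 1 and 3 (31.1% of all genes), 2 between days 1 and 5 (8.37%) and 2 between days 1 and 10 (3.75%). It was 2 between days 3 and 5 (12.7%), 5 between days 3 and 10 (37.9%) and 0 between days 5 and 10 by limma, where 1 had an unadjusted p under 0.05 (0.281% of all genes). The counts depended on single libraries, and so did the share of all genes called. These shifts thus say little about the 10. With a term for Xist in the fit, which rests on the pair of day 3, 5 of the 10 genes still differed between days 3 and 0 (34.9% of all genes). Spp1 and Gpnmb no longer did. Between days 1 or 5 and day 0 limma then called 0 of the 10 and 0 of all 16753 genes, with 1811 and 3193 at an unadjusted p under 0.05, so these zeros say nothing about the 10.

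**Figure D2:**
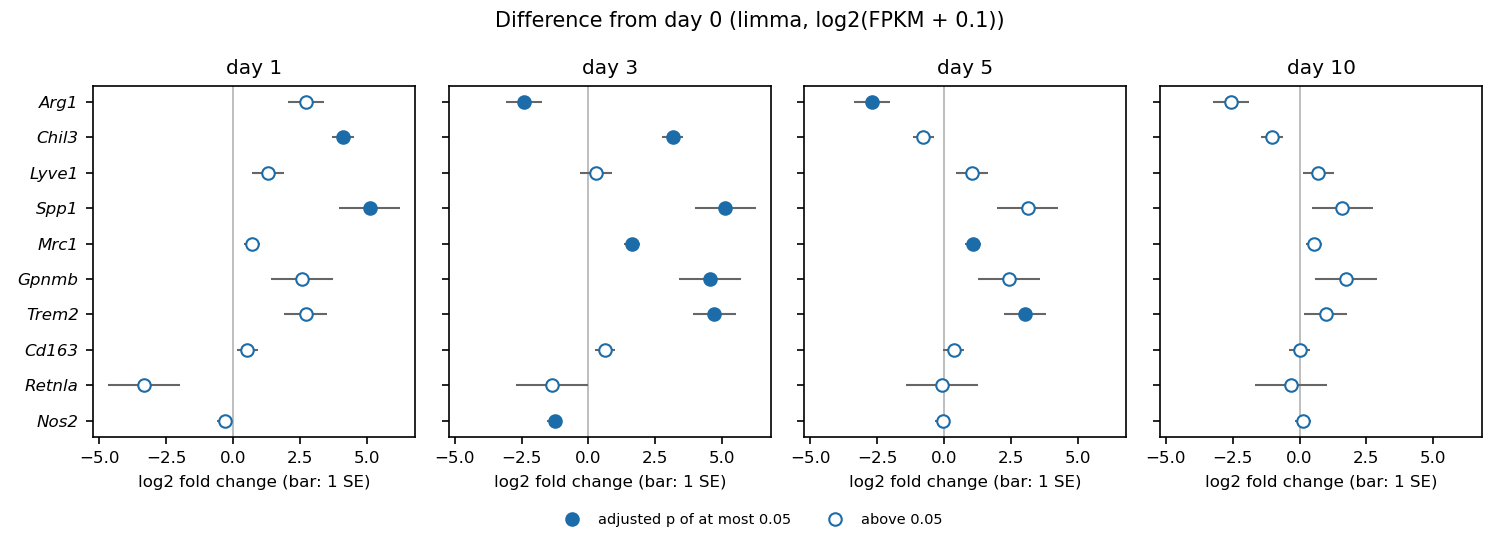
Log2 fold change of each gene from day 0 on days 1, 3, 5 and 10, with bars of 1 standard error from the limma fit. Filled points passed an adjusted p of 0.05: 2 genes on day 1, 7 genes on day 3, 3 genes on day 5 and 0 genes on day 10.

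Nos2 (chr11:78920787-78960254, plus strand, GRCm38), the inducible nitric oxide synthase and the inflammatory marker of the set, was not called higher than day 0 on any day. It stood at 1.18 and 1.78 FPKM on day 0, at 1.35 and 1.00 on day 1, at 0.574 and 0.527 on day 3, at 1.34 and 1.47 on day 5, and at 1.28 and 2.00 on day 10. Both day 3 libraries lay below the 8 others. The change from day 0 to day 3 was -1.26 on the log2 scale (SE 0.285, adjusted p = 0.0087), and from day 3 to day 10 it was 1.39 (SE 0.285, adjusted p = 0.00801). The call for day 3 against day 0 was lost without replicate 2 of day 0, where the change was -0.98. Day 3 was also below day 1 by 0.96 (adjusted p = 0.0389) and below day 5 by 1.21 (adjusted p = 0.0346). These calls were lost when any library of the days compared was left out, and with the term for Xist. The levels rest on few reads, 50 and 47 on day 3 and 65 and 105 on day 0. These were out of 14.33 and 14.29 M reads on genes on day 3 and 16.78 and 16.15 M on day 0. Per total reads the fall was thus smaller than in FPKM.

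In whole muscle, most genes known to act upstream of Nos2 rose while it fell. Whether these changes took place in the same cells was not tested. Of 12 genes for NF-kB and interferon gamma signalling, 11 were tested and 7 rose from day 0 to day 3 while 1 fell, with a median log2 change of 1.23 against 0.01 over all genes. The share called was 72.7%, against 48.8% of all genes. Tlr2, which senses bacterial lipoproteins, rose by 3.18 (adjusted p = 0.002), and Irf8, a transcription factor of myeloid cells, by 2.57 (adjusted p = 0.000263). Myd88, the adaptor of these receptors, rose by 1.75 (adjusted p = 0.00182) and Irf1 by 1.26 (adjusted p = 0.00343). Ifng itself was at most 0.117 FPKM in any library.

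Of 20 genes of inflammatory monocytes and macrophages, 15 were tested, 10 rose from day 0 to day 3 and 1, the cytokine Il1a, fell by 1.34 (adjusted p = 0.0171), with a median of 2.45. Ccr2, the chemokine receptor that brings monocytes in, was at 0.333 and 0.543 FPKM on day 0, at 4.09 and 3.57 on day 1, and at 8.42 and 8.40 on day 3, a log2 change of 4.01 (SE 0.39, adjusted p = 0.000385). Ly6c2, a surface marker of the same monocytes, changed by 3.85 (adjusted p = 0.00137), Cxcl10 by 3.57 (adjusted p = 0.00565) and Plac8 by 3.47 (adjusted p = 0.0131). Ccl2, the ligand of Ccr2 and named here for that role, was highest earlier, at 23.9 and 27.4 FPKM on day 1 against 0.494 and 0.856 on day 0 (log2 change 5.09, adjusted p = 0.0083). The cytokine Il1b, named for its role, was at 0.463 and 0.550 FPKM on day 0, and at 3.81 and 0.998 on day 1, and did not pass the test (adjusted p = 0.118).

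Arg1 (chr10:24915221-24927484, minus strand), the liver-type arginase, had the largest ratio of highest to lowest day mean in the set. It was at 1.48 and 1.41 FPKM on day 0, at 9.87 and 10.6 on day 1, at 0.591 and 0.0222 on day 3, at 0.138 and 0.137 on day 5, and at 0.147 and 0.169 on day 10. The day 1 libraries lay above all others, with a mean of 10.25 ± 0.532 FPKM (SD, n = 2), which was 7.10 times the mean of day 0 and 74.7 times that of day 5. The libraries of days 5 and 10 held only 4 to 6 implied reads each, so ratios that use them are imprecise. The log2 change from day 0 to day 1 was 2.74 (SE 0.67), and its adjusted p of 0.0552 missed the threshold, with a range of 0.00536 to 0.847 over the 21 alternatives. From day 1 the level fell by 5.15 to day 3 (adjusted p = 0.00324), by 5.45 to day 5 (adjusted p = 0.0145) and by 5.33 to day 10 (adjusted p = 0.0174). The drop to day 3 was called in every alternative, while the calls for days 5 and 10 were lost without replicate 1 of day 1 (-5.50 and -5.38) and without single libraries of days 5 and 10. With the term for Xist the drop to day 10 was 2.83 on the log2 scale and was lost (adjusted p = 0.314).

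The later days also lay below day 0 for Arg1, by 2.41 on day 3 (adjusted p = 0.0201) and by 2.70 on day 5 (adjusted p = 0.0274), while day 10 did not pass (adjusted p = 0.386). The day 3 libraries differed from each other, with 26 and 1 implied reads, and these were the pair that differed in Xist. The call for day 3 against day 0 was lost without replicate 1 (-2.38) or 2 (-2.44) of day 0 and when only these 2 days were fitted. It was called without either library of day 3, but the size moved to -3.66 without replicate 1 and to -1.16 without replicate 2. That for day 5 was lost without any library of days 0 or 5, at -2.73 to -2.67, and with the term for Xist (-5.20). With the term for Xist, the change from day 0 to day 1 was 0.24 (adjusted p = 0.847). Per length, Arg1 exceeded Nos2 by 7.34 and 10.6 times in the day 1 libraries, stood at 1.25 and 0.792 times Nos2 on day 0 and at 1.03 and 0.0421 times on day 3, and was between 0.0846 and 0.115 times Nos2 on days 5 and 10.

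Around Arg1, 16 other genes of arginine and polyamine metabolism were all tested. From day 0 to day 3, 6 rose and 5 fell, with a median of 0.19, and from day 0 to day 1, 3 rose and 0 fell. Gatm, which makes the creatine precursor from arginine, was at 1.36 and 1.10 FPKM on day 0, and at 42.9 and 62.6 on day 3, a change of 5.29 (SE 0.28, adjusted p = 0.000263). Ass1, which with Asl rebuilds arginine from citrulline, rose by 2.70 (adjusted p = 0.000263), and Ddah2, which breaks down the methylarginines that inhibit nitric oxide synthases, by 1.95 (adjusted p = 0.00291). Nos1, the neuronal nitric oxide synthase, which muscle fibers express, fell by 2.99 (adjusted p = 0.000578), and Nos3, the endothelial form named for its role, by 1.44 (adjusted p = 0.00223). Odc1, which takes the ornithine made by arginase into polyamines and is named for that role, shared the day of Arg1, at 15.2 and 19.2 FPKM on day 0, at 109 and 55.9 on day 1, and at 32.1 and 27.7 on day 3, with a day 1 change of 2.18 (adjusted p = 0.0204). Srm, which makes spermidine from the product of Odc1, rose by 1.61 on day 1 (adjusted p = 0.0296).

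Chil3 (chr3:106147554-106167564, minus strand), the chitinase-like protein Ym1, which binds sugars but does not cut chitin, was higher than day 0 on days 1 and 3. It was at 0.246 and 0.413 FPKM on day 0, at 5.95 and 8.81 on day 1, at 3.01 and 4.39 on day 3, at 0.113 and 0.186 on day 5, and at 0.05004 and 0.185 on day 10. The 4 libraries of days 1 and 3 lay above the 6 others without overlap. Relative to day 0 it rose by 4.12 on day 1 (SE 0.40, adjusted p = 0.00969) and by 3.15 on day 3 (adjusted p = 0.000856), and it fell by 3.92 from day 3 to day 5 (adjusted p = 0.00525). On day 5 it was -0.77 from day 0 (adjusted p = 0.195). The day 1 call was lost without replicate 1 of day 0 (3.84) or of day 1 (4.40), and the drop to day 5 without replicate 2 of day 3 (-3.66), while the day 3 call held in every alternative. With the term for Xist the day 1 call (4.65) and the drop from day 3 to day 5 (-3.66) were lost too. Falls of 4.89 from day 1 to day 5 (adjusted p = 0.00486) and of 4.18 from day 3 to day 10 (adjusted p = 0.000633) were called in every alternative. The mean of day 1 was 22.4 times that of day 0, from 139 and 189 implied reads against 5 and 9. Its close copy Chil4 was listed at 0 in every library, and how shared reads of such copies were assigned is not given in the sources used here.

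Granulocytes also make Chil3, so their markers are given beside it. The sum of 11 neutrophil markers was 2.36 and 6.497 FPKM on day 0, 11.8 to 20.7 on day 1, 7.65 to 8.65 on day 3 and 2.57 to 3.03 on day 5. It was 1.13 to 1.76 on day 10. Of the 11, 5 passed the filter, of which Csf3r, the receptor for the neutrophil growth factor, rose from day 0 to day 1 by 3.34 (adjusted p = 0.00969) and to day 3 by 4.24 (adjusted p = 0.000263). S100a8 and S100a9, the most abundant on day 1, stood at 5.23 and 2.19 FPKM and at 10.0 and 4.23 FPKM there and did not pass the test against day 0 (adjusted p = 0.292 and 0.188). Mmp8 did not pass it either (adjusted p = 0.107), nor did the chemokine receptor Cxcr2, which was listed at 0 in both libraries of day 0 and at 0.527 and 0.599 FPKM on day 1 (adjusted p = 0.0509). Ngp, a granule protein that did not pass the filter, was also highest on day 1, at 0.629 and 0.498 FPKM. Ly6g and Elane, which define neutrophils and their precursors, were listed at 0 in both day 1 libraries. The part of neutrophils in the Chil3 levels was not tested.

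Retnla (chr16:48842551-48844461, plus strand), the secreted protein Relm-alpha, was lowest on day 1, where Chil3 was highest. It was at 15.7 and 16.9 FPKM on day 0, at 0.584 and 3.82 on day 1, at 3.30 and 11.6 on day 3, at 15.6 and 15.2 on day 5, and at 2.87 and 57.4 on day 10. All 4 libraries of days 1 and 3 lay below those of days 0 and 5, but replicates differed widely, and the day 1 change of -3.32 (SE 1.35) did not pass (adjusted p = 0.165). The highest mean, 30.1 ± 38.5 FPKM (SD, n = 2) on day 10, came from 1 library, and on the log2 scale the highest day was day 0. The 7 eosinophil markers summed to at most 0.622 FPKM in any library, and none passed the filter. Fibroadipogenic progenitor markers summed to 69.0 and 130 FPKM on day 0, 70.0 to 169 on day 1, 444 to 492 on day 3, 493 to 557 on day 5 and 122.6 to 263.5 on day 10, and the part of these cells in the Retnla levels was not tested.

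Receptors and signals of IL-4 and IL-13 were present while the cytokines were scarce. Of 15 genes, 13 were tested, and 7 rose and 2, Cebpb and Klf4, fell from day 0 to day 3 with a median of 0.58. The share called was 69.2%, against 48.8% of all genes. Il4ra, the shared receptor chain, was at 1.60 and 2.79 FPKM on day 0, at 8.34 and 7.25 on day 1, and at 8.74 and 10.99 on day 3, rising by 1.83 on day 1 (adjusted p = 0.0278) and by 2.16 on day 3 (adjusted p = 0.00138). Its partners Il13ra1 and Il2rg rose by 2.73 (adjusted p = 0.00217) and 1.99 (adjusted p = 0.00441) on day 3, as did the alarmin Il33 by 2.42 (adjusted p = 0.0105). Il13 was listed at 0 in 9 of 10 libraries, and Il4 was at 0.165 to 0.785 FPKM.

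Of 19 further genes of alternative activation, 14 were tested, 8 rose and 1, Klf4, fell from day 0 to day 3, with a median of 1.47. The share called was 64.3%, against 48.8% of all genes. Clec10a, a lectin receptor, rose by 3.36 (adjusted p = 0.000397), the scavenger receptor Msr1 by 3.44 (adjusted p = 0.000539), fibronectin Fn1 by 2.96 (adjusted p = 0.00713) and Tgfb1 by 2.41 (adjusted p = 0.00197). Like Chil3, Msr1 was already at 2.44 and 3.09 FPKM on day 1, against 0.0380 and 0.106 on day 0 (adjusted p = 0.00969). Of the 9 kin of Chil3 and Retnla, only 2 were tested. Chil1, a chitinase-like protein, was at 0.0286 and 0.134 FPKM on day 0, and at 1.41 and 1.15 on day 3, a change of 2.98 (adjusted p = 0.00584), and Retn changed by 0.21 (adjusted p = 0.85).

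Mrc1 (chr2:14229392-14332057, plus strand), the mannose receptor CD206, rose to day 3 and declined slowly. It was at 1.94 and 3.09 FPKM on day 0, at 3.28 and 5.08 on day 1, at 7.20 and 8.47 on day 3, at 5.05 and 5.50 on day 5, and at 2.999 and 4.28 on day 10. Both day 3 libraries lay above all others. The log2 change from day 0 was 1.63 on day 3 (SE 0.29, adjusted p = 0.00322) and 1.07 on day 5 (adjusted p = 0.0351). Day 3 was also above day 1 by 0.92 (adjusted p = 0.048) and above day 10, by which the level fell by 1.10 (adjusted p = 0.0216). The day 3 call against day 0 held without any single library and with the term for Xist. The others did not: against day 1 it was lost without either library of days 3 or 5 or replicate 1 of day 1 (0.61 to 1.04), for day 5 without either library of days 3 or 5 or replicate 1 of day 0 (0.75 to 1.13), and against day 10 without either library of day 3 (-1.22 and -0.99) or replicate 1 of day 10 (-0.85). The mean on day 3, 7.84 ± 0.897 FPKM (SD, n = 2), was 3.12 times that on day 0, which is the smallest ratio among the 5 genes that rose by day 3.

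Cd163 (chr6:124304656-124330527, plus strand), the scavenger receptor for hemoglobin bound to haptoglobin, stayed between 0.778 and 1.90 FPKM in all 10 libraries. The day means ran from 0.844 ± 0.0289 FPKM on day 0 to 1.41 ± 0.585 FPKM on day 3 (SD, n = 2), and the day 3 change of 0.62 (SE 0.39) did not pass (adjusted p = 0.228). Both day 3 libraries lay above those of days 0 and 10, and the day 1 libraries overlapped every other day. Of 10 genes for hemoglobin and heme scavenging, 9 were tested and 5 rose and 1, the heme transporter Slc48a1, fell from day 0 to day 3, with a median of 2.21, while Blvra (0.34), Fth1 (-0.39) and Slc40a1 (-0.74) did not pass (adjusted p = 0.0729, 0.173 and 0.183). The share called was 66.7%, against 48.8% of all genes. Hmox1, which breaks heme down, was at 3.48 and 4.15 FPKM on day 0, at 48.7 and 30.6 on day 1, and at 34.6 and 16.3 on day 3, with a day 1 change of 3.31 (SE 0.37, adjusted p = 0.0135). The ferritin light chain Ftl1 rose by 2.51 on day 3 (adjusted p = 0.00046), haptoglobin Hp by 2.36 (adjusted p = 0.00845) and Lrp1, the receptor for heme on hemopexin, by 2.40 (adjusted p = 0.00215).

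Lyve1 (chr7:110850607-110863239, minus strand), a hyaluronan receptor of lymphatic vessels and of macrophages beside blood vessels, was the lowest of the 10 genes on day 0 apart from Trem2. It was at 0.275 and 0.359 FPKM on day 0, at 0.478 and 1.72 on day 1, at 0.278 and 0.576 on day 3, at 0.589 and 0.973 on day 5, and at 0.420 and 0.775 on day 10, from 10 to 66 implied reads. The largest value was 1 of the 2 libraries of day 1, and the difference from day 0 there, 1.31 (SE 0.59), did not pass (adjusted p = 0.204). Replicate 2 was the higher on every day. Of 7 lymphatic endothelial markers, Lyve1 included, 4 were tested. Prox1 and Flt4, which define lymphatic endothelium, differed from day 0 on neither day 1 nor day 3 (adjusted p from 0.123 to 1), whereas podoplanin (Pdpn), which fibroblasts also express, rose by 3.64 on day 1 (adjusted p = 0.0104).

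Of 10 genes that make, bind or clear hyaluronan, 6 rose and 1, the clearance receptor Stab2, fell from day 0 to day 3, with a median of 1.33. The share called was 70.0%, against 48.8% of all genes. The receptor Cd44 rose by 2.63 (adjusted p = 0.0019), the synthase Has2 by 2.55 (adjusted p = 0.00709), Cemip, which breaks hyaluronan down, by 3.18 (adjusted p = 0.00285) and the receptor Hmmr by 2.84 (adjusted p = 0.0095). Of 20 other genes of resident macrophages, 15 were tested and 10 rose while 0 fell, with a median of 2.10. The share called was 66.7%, against 48.8% of all genes, and the genes named next changed most. Ccl8 rose by 5.31 (adjusted p = 0.00468), Cx3cr1, the fractalkine receptor, by 4.87 (adjusted p = 0.000698), the folate receptor Folr2 by 3.55 (adjusted p = 0.000689) and Pf4 by 3.34 (adjusted p = 0.0018). Timd4 and Vsig4, used for long-lived resident macrophages, did not pass the filter and were at most 0.205 FPKM. Lyve1 and Cd163 did not pass the test on that day, nor did the rest of the 15 tested.

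Spp1, Gpnmb and Trem2 showed the largest rises of the 10 genes by day 3. Spp1 (chr5:104435118-104441050, plus strand) encodes osteopontin, a secreted ligand of integrins and Cd44. It was at 2.19 and 3.54 FPKM on day 0, at 90.2 and 110.9 on day 1, at 160 and 63.6 on day 3, at 27.3 and 23.1 on day 5, and at 1.93 and 37.8 on day 10. The libraries of days 1 and 3 lay above all others, and they overlapped each other. The log2 change from day 0 was 5.11 on day 1 (SE 1.15, adjusted p = 0.0462) and 5.13 on day 3 (adjusted p = 0.00838), and between days 3 and 10 it fell by 3.52 (adjusted p = 0.0453). The day 1 call was lost in 14 of 21 alternatives, among them without any library of days 0, 1, 3 or 5 (4.78 to 5.45), and the day 3 call without replicate 1 of day 3 (4.46). With the term for Xist the changes were 3.78 on day 1 and 4.46 on day 3, and both calls were lost. The drop to day 10 was also lost in 14 of 21, and rested on the pair of day 10, being -1.41 and lost without replicate 1 and -5.63 and called without replicate 2. Spp1 shares 309 exon bases with Gm42793 on the same strand, so a part of its reads could have been left out of the count.

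Of 10 osteopontin receptors, 9 were tested and 6 rose and 0 fell from day 0 to day 3, with a median of 0.97. The share called was 66.7%, against 48.8% of all genes. Cd44 was at 0.971 and 1.71 FPKM on day 0 and already at 10.1 and 6.96 on day 1, a change of 2.61 (adjusted p = 0.0246). Of the integrin chains, Itga5 rose by 1.65 (adjusted p = 0.00902) and Itga9 by 1.44 (adjusted p = 0.0158) on day 3, and Itgb3 changed by 1.37 without passing (adjusted p = 0.0816).

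Gpnmb (chr6:49036546-49070929, plus strand), a membrane glycoprotein of cells loaded with lysosomal material, was at 0.764 and 1.72 FPKM on day 0, at 7.74 and 7.05 on day 1, at 31.2 and 27.7 on day 3, at 7.13 and 6.33 on day 5, and at 0.815 and 19.2 on day 10. Both day 3 libraries lay above all others, with a mean of 29.5 ± 2.51 FPKM (SD, n = 2), 23.7 times that of day 0. The change on day 3 was 4.55 (SE 1.16, adjusted p = 0.0141), and its call was lost without replicate 1 of day 0 (4.02) or replicate 1 (4.47) or 2 (4.64) of day 3. That call was also lost with the term for Xist (4.47). The day 1 change of 2.58 did not pass (adjusted p = 0.206), and the day 5 change of 2.44 did not pass (adjusted p = 0.159), although neither day overlapped day 0. With either day 10 library left out, which removes the widest pair of replicates, both passed at the same estimates.

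Of 8 regulators and kin of Gpnmb, 3 rose and 2 fell on day 3 (62.5% called, against 48.8% of all genes), with a median of 0.53. Among the transcription factors of the MiT/TFE family, which drive lysosomal genes, Tfec rose by 2.55 from at most 0.0287 FPKM on day 0 (adjusted p = 0.00614), and Tfeb, which is not specific to macrophages, fell by 1.46 (adjusted p = 0.000883). Mitf fell by 0.61 (adjusted p = 0.0236) and Tfe3 rose by 0.68 (adjusted p = 0.0119). Ctsk, a protease of osteoclasts and fibroblasts, rose by 3.19 (adjusted p = 0.0145), and Atp6v0d2, a proton pump subunit, changed by 2.57 without passing (adjusted p = 0.0823).

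Trem2 (chr17:48346401-48354147, plus strand), a receptor for lipids and lipoproteins, was at 0.195 and 0.379 FPKM on day 0, at 2.27 and 2.48 on day 1, at 10.6 and 8.96 on day 3, at 2.83 and 3.10 on day 5, and at 0.165 and 1.95 on day 10. The implied reads were 12 and 25 on day 0 and 1033 and 897 on day 3. Both day 3 libraries lay above all others, and those of days 1 and 5 lay above those of day 0. The change from day 0 was 4.71 on day 3 (SE 0.79, adjusted p = 0.00247) and 3.03 on day 5 (adjusted p = 0.0313), and the day 1 change of 2.72 did not pass (adjusted p = 0.0821) except without either library of day 10. The day 3 call held in every alternative, and the day 5 call was lost without any library of days 0, 3 or 5 (2.68 to 3.38). From day 3 to day 10 it fell by 3.74 (adjusted p = 0.00894). Its day 3 mean was 34.1 times that of day 0, against 39.0 times for Spp1.

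Most signalling partners of Trem2 also rose. Of 12 genes, 9 were tested and 8 rose and 0 fell from day 0 to day 3, with a median of 3.24. Tyrobp, the adaptor through which Trem2 signals, was at 3.73 and 6.18 FPKM on day 0, and at 158 and 144 on day 3, a change of 4.95 (SE 0.56, adjusted p = 0.000562). The kinase Syk rose by 3.34 (adjusted p = 0.000528), the phospholipase Plcg2 by 3.51 (adjusted p = 0.000772) and the ligand Apoe by 4.89 (adjusted p = 0.000353). The ligand Clu, named for its role, kept another time: it was at 73.3 and 83.4 FPKM on day 1 against 13.5 and 10.9 on day 0 (change 2.68, adjusted p = 0.0204) and at 10.7 and 10.6 on day 3.

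Of 21 genes of lipid-handling phagocytes, all were tested, 16 rose and 3 fell from day 0 to day 3, with a median of 1.84. Lgals3, a lectin, was at 3.67 and 7.66 FPKM on day 0, at 118.5 and 59.2 on day 1, and at 147 and 135 on day 3 (day 3 change 4.70, adjusted p = 0.00167). Abcg1, a sterol exporter, rose by 3.78 (adjusted p = 0.00288) and the integrin Itgax by 3.71 (adjusted p = 0.0143). The 3 genes that fell were Cd36 by 1.83, Fabp4 by 1.11 and Lpl by 2.47 (adjusted p = 0.00945, 0.0129 and 0.00302), which muscle fibers, capillaries and fat also express and which were named because they were the exceptions.

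Genes used here as general (pan-macrophage) markers, some of which other cells express too, changed about as much as Trem2, Gpnmb and Spp1. All 18 pan-macrophage genes rose from day 0 to day 3, with a median log2 change of 4.57, and all 18 fell from day 3 to day 10, with a median of -3.41. Ctss, a lysosomal protease, was at 4.79 and 11.9 FPKM on day 0, and at 346 and 361 on day 3 (adjusted p = 0.00156), and Ms4a7 rose by 5.61 (adjusted p = 0.000648) and Fcgr1 by 5.20 (adjusted p = 0.000459). Their geometric mean was at 1.56 and 2.85 FPKM on day 0, at 9.18 and 11.1 on day 1, at 43.7 and 43.5 on day 3, at 12.6 and 15.7 on day 5, and at 2.25 and 7.00 on day 10. At the same time 9 of 10 genes that define skeletal muscle fell on day 3, with a median of -2.15, and all 7 myogenic cell markers rose, with a median of 2.28. Myog, the transcription factor of differentiating myoblasts, rose by 4.73 on day 3 (adjusted p = 0.000285).

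**Figure D3:**
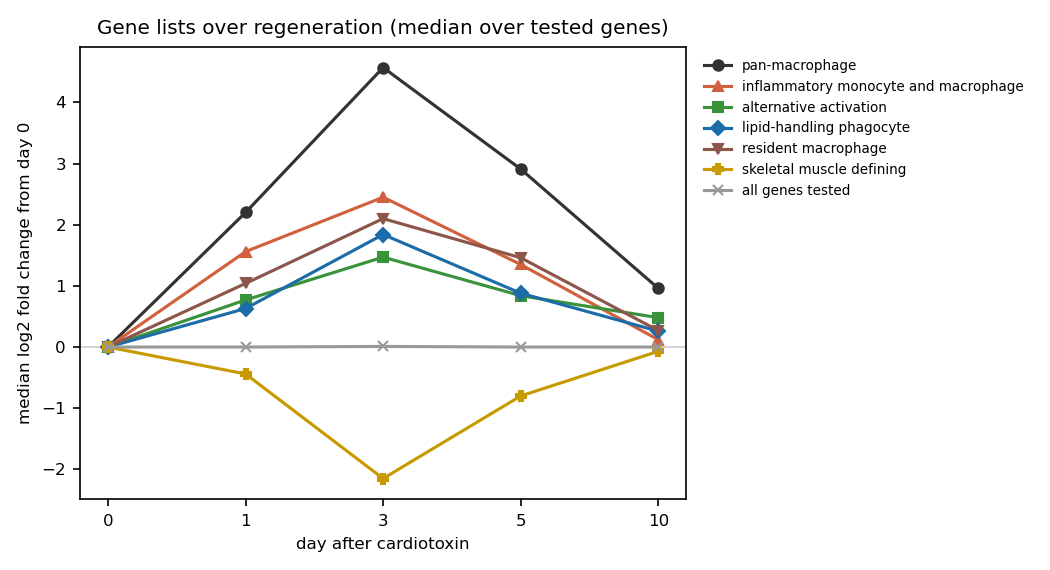
Median log2 fold change from day 0 of the tested genes of each list against the day after cardiotoxin, with days evenly spaced. The 5 macrophage lists peak on day 3, pan-macrophage genes highest at 4.57, while skeletal muscle genes reach -2.15 and all genes tested stay near 0.

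Markers of other cell types that the tissue could hold were read in the same way. Of 7 dendritic cell markers, 3 were tested and Ccr7 rose on day 3 by 2.45 (adjusted p = 0.00628). Of 7 T and B lymphocyte markers only Cd4, which some macrophages express too, was tested, and it rose by 3.29 (adjusted p = 0.00249). Of 6 blood endothelial markers, 0 rose and 2, Emcn and Kdr, fell (by 1.05 and 1.82, adjusted p = 0.0131 and 0.00392). Of 7 fibroadipogenic progenitor markers, 3 rose, Col1a1 by 3.64 (adjusted p = 0.00384). Of 6 osteoclast markers, only Acp5 and Ctsk passed the filter, and both rose, Acp5 by 4.69 (adjusted p = 0.00422). For the fibroadipogenic and blood endothelial markers, 3 of 7 and 2 of 6 are shares below the 48.8% of all genes that differed on that day. The part of these cells in the marker levels was not tested.

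Each gene was then set against the 18 pan-macrophage genes in the same library, as the log2 ratio of FPKM + 0.1 to their geometric mean, to ask whether a marker moved more or less than the general macrophage signal. These ratios are a description with no test. Against the 18 genes together, Trem2 and Gpnmb stayed near their day 0 ratio up to day 5. That of Trem2 lay between -2.58 and -1.95 in the 8 libraries of days 0 to 5, and that of Gpnmb between -1.29 and -0.23. On day 10 both left these ranges, Trem2 at -3.09 and -1.77 and Gpnmb at -1.30 and 1.46. On day 3 they were 0.34 and 0.19 above day 0, and these small differences changed sign with Adgre1 or Cd68 alone as the reference and, for Trem2, with a pseudocount of 1. With Cd68 alone as reference, Trem2 and Gpnmb lay 1.71 and 1.85 below day 0 on day 1. Spp1 gained most on day 1, by 2.85, which was 0.69 with Cd68 alone as reference, and was 0.76 above day 0 on day 3.

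For the other 7 genes the ratio was below day 0 on day 3. It was lower on day 3 by 6.78 for Arg1, 5.75 for Retnla, 5.63 for Nos2, 4.08 for Lyve1, 3.75 for Cd163, 2.74 for Mrc1 and 1.22 for Chil3. In each of the 7, both day 3 libraries lay below both day 0 libraries, and the sign held for the 8 other choices of pseudocount, reference and libraries tried. The reference itself rose, from a mean log2 of 0.641 and 1.51 on day 0 to 5.45 and 5.44 on day 3. Adgre1 and Cd68 alone rose by 4.75 and 4.77. A gene that stayed level in muscle therefore falls in this ratio, whatever cells hold it. In muscle Cd163 and Lyve1 changed by only 0.62 and 0.28 from day 0 to day 3. Mrc1 was thus higher on day 3 in whole muscle and lower relative to the macrophage genes. On day 1, Chil3 was above day 0 by 1.86 and Arg1 by 0.48, and both signs turned with Cd68 alone as reference, a gene that was itself at 63.1 and 43.5 FPKM on day 1 against 1.92 and 2.86 on day 0. By day 10 the ratios of Mrc1 and Lyve1 were -0.38 and -0.21 from day 0, and both signs turned without replicate 2 of day 10.

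**Figure D4:**
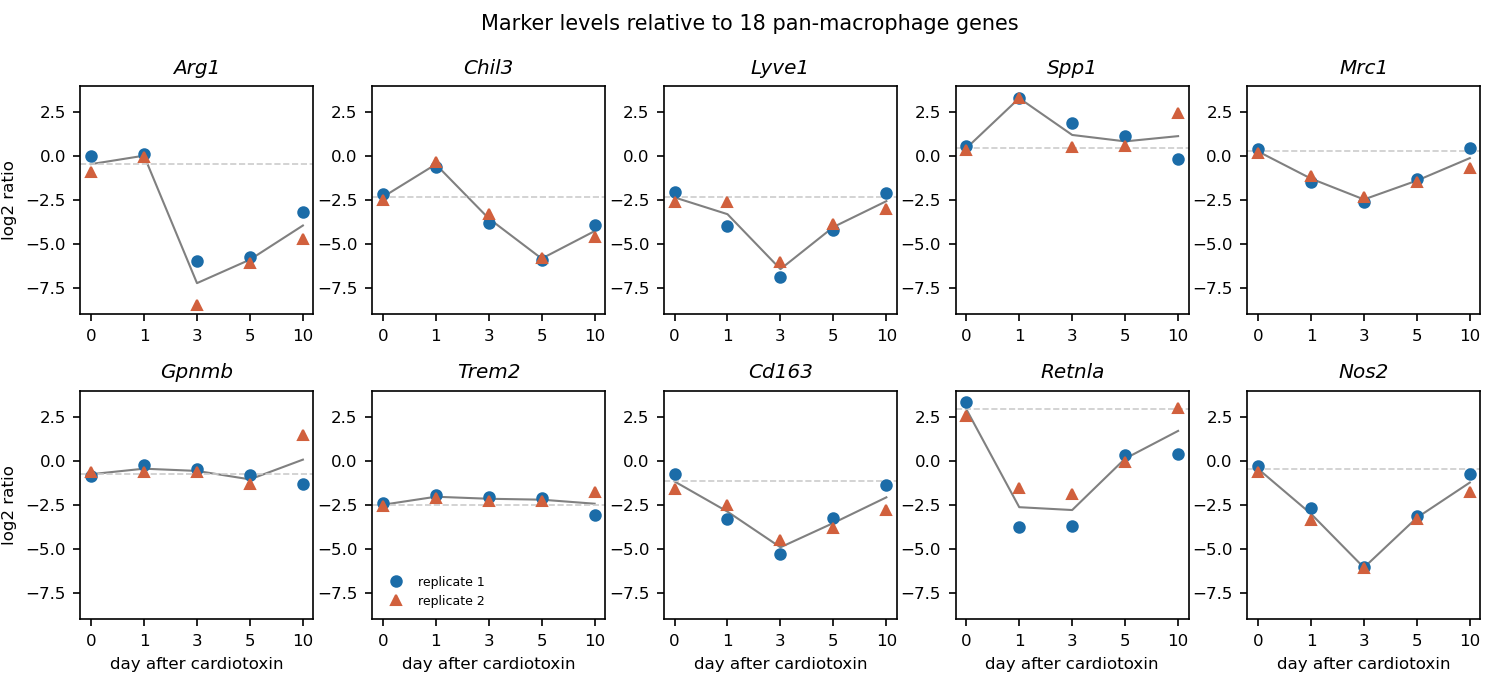
Log2 ratio of each gene to the geometric mean of 18 pan-macrophage genes in the same library (points), the mean of each day (line) and the mean of day 0 (dashed), with days evenly spaced and the same scale in every panel. Trem2 and Gpnmb stay near their day 0 ratio until day 5, while Nos2, Cd163 and Lyve1 dip on day 3, Nos2 from -0.44 to -6.07. The reference itself is highest on day 3.

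Among themselves, over the 10 libraries and on the log2 scale, the highest Pearson correlations were 0.951 for Trem2 and Gpnmb, 0.917 for Trem2 and Mrc1, 0.912 for Trem2 and Spp1 and 0.900 for Gpnmb and Spp1. The shared days set such values, and the libraries share their scaling, so they are given as a description. Chil3 and Arg1 had 0.578, Arg1 and Nos2 0.102, and Retnla was negative with both Arg1 (-0.568) and Chil3 (-0.567).

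Across all genes that reached 5 FPKM on some day, the 3 closest to Trem2 over the 10 libraries were Cd53 (0.994), Ctss (0.993) and Lyz2 (0.992), a leukocyte membrane protein, a lysosomal protease and a lysozyme. Those closest to Gpnmb were Crip1 (0.988), Fblim1 (0.961) and Actn4 (0.951). Spp1 was closest to Hsd17b12 (0.983), Capg (0.974) and Plek (0.965), and Mrc1 to Ifngr1 (0.989), Lrp1 (0.981) and Lst1 (0.974).

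The genes closest to Arg1 were Plekha3 (0.947), Prmt5 (0.944) and Errfi1 (0.938), and those closest to Chil3 were Stt3b (0.970), Slc3a2 (0.958) and Ehd1 (0.954). Nos2 was closest to Nxn (0.977), Klhdc3 (0.971) and Adprhl1 (0.954), a set that was lowest on day 3. Klhdc3, for example, had means of 73.1 FPKM before injury, 34.0 by day 3 and 88.7 by day 10. The closest genes were less alike for Retnla (Sparcl1 0.889, Clec3b 0.835, Adamtsl4 0.824), Cd163 (Ddit4 0.893, Prg4 0.847, Prelp 0.808) and Lyve1 (Tinagl1 0.805, Ace 0.755, Sema4d 0.748).

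The 2 libraries of day 10 differed widely for these genes. In replicate 2 all 10 genes were higher than in replicate 1, as were all 18 pan-macrophage genes, by a median of 1.503 on the log2 scale, while the median absolute difference over all tested genes was 0.29. The difference was 4.40 for Gpnmb, 4.28 for Retnla, 4.22 for Spp1 and 2.95 for Trem2, sizes reached by 0.257%, 0.310%, 0.346% and 1.87% of tested genes. For Mrc1, Nos2 and Cd163 it was 0.50, 0.61 and 0.22. Acp5, the acid phosphatase of osteoclasts and of lipid-laden macrophages, stood at 0.603 and 7.32 FPKM in these libraries and Itgax at 0.221 and 3.64. Without replicate 2 of day 10, 3 of the 10 genes differed between days 5 and 10, where 0 did with it, and the share of all genes was 3.43% against 0.281%.

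On the other days the median absolute difference over all genes was 0.19 to 0.33. The largest differences of replicate 2 from replicate 1 among the 10 genes were 2.52 for Retnla and 1.65 for Lyve1 on day 1, and -2.50 for Arg1 and 1.78 for Retnla and -1.33 for Spp1 on day 3. Replicate 2 of day 0 was above replicate 1 for 17 of 18 pan-macrophage genes, by a median of 0.93.

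In C2C12 cells 7 of the 10 genes were at or near 0, while Spp1 was far above its level in muscle. Chil3 and Retnla were listed at 0 in all 8 libraries, Lyve1 was at 0 in 6 and at most 0.108 FPKM, and Arg1, Nos2, Mrc1 and Cd163 were at most 0.0990 FPKM. Of the 18 pan-macrophage genes, 15 stayed below 0.5 FPKM in all 8 libraries, and Adgre1, C1qa, C1qb, C1qc, Itgam and Tyrobp were listed at 0. The exceptions were Cd68, Lyz2 and Mertk, which reached 6.38, 7.03 and 9.52 FPKM. Spp1 was at 957 and 1288 FPKM in CTRL in GM, 851 and 954 in CTRL on DM3, 1059 and 809 in Cas9M3 in GM and 1146 and 1012 in Cas9M3 on DM3. The highest muscle library held 160 FPKM, a level from a table that the authors scaled separately. These cells, with 15 of the 18 pan-macrophage transcripts at or near 0, thus carried both Spp1 and Gpnmb, and the cell source of these transcripts in muscle was not tested.

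Mettl3, the target of Cas9M3, was at 4.70 and 5.65 FPKM in CTRL in GM and 0.331 and 0.118 in Cas9M3 in GM, and at 4.68 and 5.15 against 0.148 and 0.0805 on DM3, low in all 4 Cas9M3 libraries. Of the 10 genes, 3 passed the filter in these cells, Spp1, Gpnmb and Trem2. By limma 0 of the 3 differed between Cas9M3 and CTRL in GM, with 0 at an unadjusted p under 0.05 (0% of 13824 genes were called, with 1244 at an unadjusted p under 0.05). On DM3 0 of 3 differed, with 1 at an unadjusted p under 0.05 (1.98% of genes, or 3.65% with the replicate numbers as pairs). Between DM3 and GM in CTRL 0 of 3 differed, with 1 at an unadjusted p under 0.05 (1.14%, or 2.97% with the pairs), and 0 of 3 for the difference of the Cas9M3 effect between DM3 and GM, with 1 at an unadjusted p under 0.05 (0%, with 1198 genes at an unadjusted p under 0.05).

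Gpnmb came nearest to a call for Cas9M3 on DM3, and Trem2 between DM3 and GM. In CTRL Gpnmb was at 11.96 and 2.70 FPKM in GM and 16.7 and 17.1 on DM3, and in Cas9M3 at 7.97 and 4.27 in GM and 3.08 and 3.05 on DM3. The groups did not overlap on DM3 and overlapped in GM. The DM3 difference was -2.43 on the log2 scale (SE 0.66) with an adjusted p of 0.125, or 0.0685 with the replicate numbers as pairs. With only the DM3 groups fitted it passed, but 21.6% of all genes then did, against 1.98% with all groups. The call also changed without single CTRL libraries of GM. Trem2 was at 0.960 and 0.586 FPKM in CTRL in GM and 0.0590 and 0.0243 on DM3, a change of -2.60 (SE 0.61, adjusted p = 0.113, or 0.0619 with the pairs), and in Cas9M3 at 0.897 and 0.264 in GM and 0.261 and 0.275 on DM3. Spp1 differed by 0.26 between Cas9M3 and CTRL on DM3 (SE 0.33, adjusted p = 0.79).

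**Figure D5:**
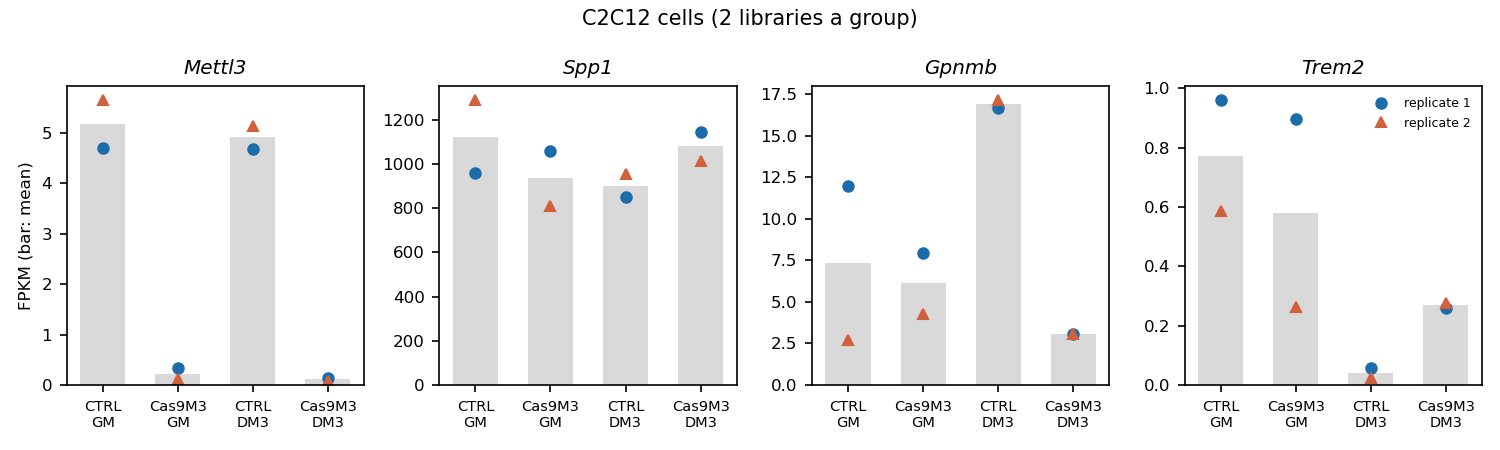
FPKM of Mettl3, Spp1, Gpnmb and Trem2 in each C2C12 library (points) and the group mean (bar), on linear axes from 0, for CTRL and Cas9M3 in GM and on DM3. Mettl3 is low in all 4 Cas9M3 libraries, Spp1 stays between 809 and 1288, and Gpnmb on DM3 is near 17 in CTRL and near 3.07 in Cas9M3.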

How the data were processed

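Total RNA from tibialis anterior muscle and C2C12 cells was sequenced for the study. Per the authors' methods, reads were aligned with HISAT2 to GRCm38, gene counts came from featureCounts, and the FPKM values they deposited were made with DESeq2. The median ratio of genes to their mean was 1.0081 in all 10 muscle libraries, so the values already carried median-ratio scaling. On 1 kb, 1 read stood for 0.0803 and 0.0749 FPKM on day 0 and 0.0507 and 0.0494 on day 3, out of step with total reads. Whether the counting used strand is not given in the sources used here. Depth was read from the steps between low FPKM values, of which 96.97 to 97.7% in muscle and 98.68 to 98.9% in C2C12 were whole reads (within 0.05 of a read), giving 14.2 to 18.8 and 14.2 to 29.6 M reads on genes. Precision is set by 2 libraries a group. For 2 against 2 the smallest 2-sided exact permutation p is 0.333, so differences were tested with limma 3.58.1 in R 4.3.3. Genes with at least 0.5 FPKM in 2 libraries were fitted as log2(FPKM + 0.1) over all groups of a table with a trend in the variance, and p-values were adjusted by Benjamini-Hochberg over all of them. Log2 fold changes of low genes are understated on this scale. Fold changes and SEs come from that fit, and other summaries from Python 3.11.15 with pandas 2.3.3, numpy 2.4.6 and matplotlib 3.10.9.

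On simulated data, 77 of 100 genes changed by a log2 of 2 and 87 of 100 changed by 4 were called in muscle, with 11 unchanged genes, and 55, 79 and 10 in C2C12. Only these few genes were changed, in a single group and with independent noise. The simulation held neither the broad change of day 3, nor the Xist difference, nor the pairing in C2C12. These rates therefore need not hold for the comparisons reported. Libraries with the same replicate number deviated together in C2C12 (6 correlations of 0.28 to 0.68), so the numbers were taken as pairs there. The design set the fit without the block as the one reported, and blocked values stand beside the C2C12 results they move.

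The 10 genes and the 24 gene lists were chosen with earlier results of these data known. Named were the 10 genes, the 3 genes most correlated with each among those with a mean of 5 FPKM on some day, up to 4 tested genes of each list with the largest change from day 0 to day 3, and genes needed for their role or as exceptions, chosen after their values were seen. Alternatives were other pseudocounts, filters, scalings, spread models, call rules and references, a replicate block, a term for Xist and leaving out each library. Median-ratio scaling changed the muscle values only by a common factor (1.0081), so it tested nothing new there. Columns matching no sample numbered 0. The 8 libraries of the overexpression experiment were not analysed here.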

Additional observations from a re-analysis of the deposited data

How the results depend on the processing

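The number of the 10 genes called between days 0 and 1 was 2. It was 1 with a pseudocount of 0.01, no filter, quantile normalization, no variance trend or the replicate block, 0 with the term for Xist, and 0 to 4 without single libraries. Between days 0 and 5 it was 3, and 0 with no filter or the Xist term, 5 with only the groups compared, and 0 to 5 without single libraries. Between days 1 and 3 it was 3, and 1 with no filter, a minimum log2 change of 2 or the Xist term, and 1 to 5 without single libraries. Between days 1 and 5 it was 2, and 1 to 3 without single libraries. Between days 1 and 10 it was 2, and 1 with only the groups compared, 0 with the Xist term, and 1 to 5 without single libraries. Between days 3 and 5 it was 2, and 1 with no filter or the minimum change, 6 with only the groups compared, 0 with the Xist term, and 0 to 5 without single libraries. Between days 3 and 10 it was 5, and 3 with the minimum change or the Xist term, and 3 to 6 without single libraries. Between days 5 and 10 it was 0, and 0 to 3 without single libraries. The count between days 0 and 3 stayed at 5 to 7, and that between days 0 and 10 at 0. The share of all genes called moved too, over these alternatives from 0 to 11% between days 0 and 1, 0 to 30% between days 0 and 5, 6.02 to 35.8% between days 1 and 3, 0.121 to 12.6% between days 1 and 5, 0 to 7.49% between days 1 and 10, 0 to 23.6% between days 3 and 5, 8.28 to 43.2% between days 3 and 10 and 0 to 3.43% between days 5 and 10. Between days 0 and 5, for example, it was 0% with the Xist term, 0.132% without replicate 1 of day 0 and 24.6% with only the groups compared. The cause of these shifts was not tested.

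In C2C12, the number called for Cas9M3 on DM3 was 0, and 1 with only the groups compared and 0 to 1 without single libraries. Between DM3 and GM in CTRL it was 0, and 0 to 1 without single libraries. The other C2C12 counts stayed at 0. With only the DM3 groups compared, 21.6% of all genes were called, against 1.98% in the fit of all groups. A lone library left in a group was assumed to vary like the other groups.

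In muscle, 2 of the 10 correlations between libraries of the same number were above 0.1, so these numbers were not taken as pairs, and the replicate block gave 1 call between days 0 and 1. In C2C12 the replicate block called 0 of the 3 genes in each comparison, as the fit without it did, while over all genes it called 505 against 274 for Cas9M3 on DM3 and 411 against 158 between DM3 and GM. In muscle it moved the count over all genes between days 5 and 10 from 47 to 463. The fold changes followed were those called, or at least 2 in size on the log2 scale, in the reported fit. Of these 42, 11 kept their side of the threshold in every alternative and 0 changed direction. Changes picked this way seldom turn, so this says nothing about the direction of smaller ones. FPKM values, 2 libraries a day and the Xist difference limit what can be resolved, and transcripts under about 0.0817 FPKM on 1 kb rest on less than 1 read.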
